A study of Mus musculus with 15 samples.

Results

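The genes described here are the nuclear receptors and the PGC-1 coactivators in dendritic cells grown from mouse bone marrow (BMDCs). They were chosen by name: 45 gene symbols of the NR0 to NR6, PPAR, RAR, RXR, ROR, thyroid hormone, vitamin D, estrogen and estrogen-related receptor families and of Ppargc1a and Ppargc1b matched the naming rule. Of these, 36 had at least 1 read in at least 3 of the 15 libraries and are the members, among 50554 genes in the tables. Of the other 9, Nr0b1, Nr0b2, Nr2e1, Nr2e3 and Esrrb had no read in any library, and the rest, Nr2f1, Nr5a2 and Rxrg among them, had reads in 1 or 2 libraries. All reads of 4 members (Ppara, Nr2f2, Nr5a1 and Esrrg) were below 10 per library, 7 members fell below 10 reads in some libraries, and 25 had at least 10 reads in every library. Receptor genes that the naming rule does not take in include Nr1i2, Nr1i3, Pgr, Hnf4a and Hnf4g.

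RNA was sequenced from 4 groups. Δ/DN LPS (4 libraries) and Δ/DN US (4 libraries) came from CreERT2 mice that carried a floxed Mysm1 allele opposite an allele for a catalytically inactive MYSM1, a chromatin-binding deubiquitinase. Δ/+ LPS (3 libraries) and Δ/+ US (4 libraries) came from CreERT2 mice with the floxed allele opposite a wild-type one. All mice had been given tamoxifen, which activates the Cre and deletes the floxed allele, more than 12 weeks before marrow was taken, so both genotypes carry 1 deleted allele (Δ). Marrow was grown with GM-CSF for 9 days, and the cells were then kept for 18 h with 10 ng/mL lipopolysaccharide (LPS, a bacterial ligand of TLR4) or unstimulated (US). Tamoxifen acted on whole mice, so marrow cells other than dendritic cells also carried the deletion, and the promoter of the CreERT2 transgene was not named. The age of the mice was not given, and whether each culture came from a separate mouse was not stated. The p-values measure the spread between these libraries. The main fit did not pair the LPS and US library of a culture, which was done only in an alternative fit.

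Nuclear receptors are transcription factors whose activity is set by small fat-soluble ligands such as retinoic acid, vitamin D, oxysterols, fatty acids and steroid hormones. Many bind DNA as a pair with a retinoid X receptor (RXR), recruit corepressors without ligand and coactivators with it, and in macrophages and dendritic cells are known to act on lipid handling and to restrain inflammatory genes. PGC-1 proteins are coactivators that dock on nuclear receptors, above all the estrogen-related receptors, and drive mitochondrial and oxidative genes.

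The libraries held 37256651 to 104041282 reads. Levels are given as CPM, read counts scaled to a common library size with TMM (trimmed mean of M values) factors. All 10 conventional dendritic cell markers had reads in every group, with summed levels of 1506 to 2249.7 CPM in Δ/DN LPS, 1229 to 1424 CPM in Δ/DN US, 1457 to 1826 CPM in Δ/+ LPS and 1117 to 1339 CPM in Δ/+ US libraries. The 10 macrophage markers summed to 933 to 1679, 722 to 1090.0, 1315 to 1428 and 780.1 to 984 CPM in the same groups. Most of each dendritic cell sum was Itgax, with group means of 936 to 1397 CPM, and Irf4, with 233 to 378 CPM. Flt3, Xcr1, Clec9a and Cd209a averaged 2.5 CPM or less in every group. Mysm1 averaged 35.3 CPM in Δ/DN LPS and 43.2 CPM in Δ/+ LPS libraries, and 41.2 CPM in Δ/DN US and 50.4 CPM in Δ/+ US libraries (adjusted p = 0.299 and 0.213). Total Mysm1 reads do not separate the inactive allele from the wild-type one, so they check no label. The series' design text pairs the letters C and A with the genotypes the other way round from the library names, so genotypes are given as each library is labelled, and every genotype difference would turn round if the letters in the design text were right. Library names also carry a set number, 2 or 3, whose meaning is not stated. Set 3 holds cultures 3 and 4 of Δ/DN and the US library of Δ/+ culture 4.

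Levels between genes were compared per kilobase of exonic sequence, as the mean of the 4 groups. Nr4a3, an orphan receptor of the NR4A family, was the most abundant member at 103 CPM per kb, followed by the glucocorticoid receptor gene Nr3c1 at 22.3, the oxysterol receptor gene Nr1h2 (LXRβ) at 15.01 and the retinoic acid receptor gene Rara at 13.9 CPM per kb. The order of the first 4 changed with stimulation: among US libraries Rara stood at 21.7 CPM per kb in Δ/DN and 21.7 in Δ/+, above Nr3c1 at 10.3 and 12.5. Rxra (8.09), the vitamin D receptor gene Vdr (7.89), Ppargc1b (5.65) and Esrra (4.90 CPM per kb) came next. That order also differed between groups: Ppargc1b reached 12.9 CPM per kb among Δ/DN US libraries, above Nr1h2 at 11.9 and Nr3c1, and stood at 0.809 in Δ/DN LPS and 0.463 in Δ/+ LPS libraries. Rxra reached 15.2 CPM per kb among Δ/+ US libraries, above Nr1h2 and Nr3c1 at 12.5 each. Within families 1 member was far above another: Nr1h2 was at 15.01 and Nr1h3 (LXRα) at 2.74 CPM per kb, Ppargc1b at 5.65 and Ppargc1a at 0.0320, and Nr4a3 at 103 against 1.20 for Nr4a2 and 0.717 for Nr4a1. The bile acid receptor gene Nr1h4 and the 6 members too low to test stood at 0.0256 CPM per kb or less.

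Rxra, Rara, Vdr and Pparg fell in both genotypes to between 0.234 and 0.412 of their US level, and Ppargc1b was 16.1-fold lower in Δ/DN and 17.9-fold lower in Δ/+ cells. All 3 NR4A genes, Nr3c1, Nr1h2 and Esr2 rose. Of 30 members with enough reads for edgeR's quasi-likelihood test, 15 passed at an adjusted p under 0.05 with LPS in Δ/DN cells (6 higher, 9 lower), where 48.2% of all 20865 genes tested passed (23.1% higher, 25.1% lower). In Δ/+ cells 17 passed (6 higher, 11 lower), against 47.7% of all genes (22.4% higher, 25.3% lower). Both counts include Esr2, whose test is limited as described with its reads. The members' shares, 50% and 56.7%, were thus close to those of all genes, and the count is no result about the receptors as a group. In all, 14 members passed in both genotypes, which is 93.3% of the Δ/DN calls and 82.4% of the Δ/+ calls. The same overlap over all genes is not given here, so these shares are no result about the receptors as a group. The members' median log2 fold change was -0.18 in Δ/DN and -0.21 in Δ/+ cells, beside -0.09 and -0.08 over all genes. Of 10 macrophage markers 4 rose and 1 fell with LPS in Δ/DN and 5 rose and 1 fell in Δ/+ cells. Of 10 conventional dendritic cell markers 4 rose and 3 fell in Δ/DN and 3 rose and 1 fell in Δ/+ cells; their part in the changes below was not tested.

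Between genotypes the members' shares were not far from those of all genes, and the counts are no result about the receptors as a group. Among US cells 5 of the 30 passed (Esr1, Nr4a3 and Rarb higher in Δ/DN, Rxra and Nr4a1 lower), which is 16.7%, while 10.5% of all genes passed (5.01% higher, 5.45% lower). Among LPS cells 3 passed (Esr1 higher in Δ/DN, Nr3c1 and Nr2c1 lower), which is 10%, beside 8.6% of all genes (5.37% higher, 3.23% lower). Both genotype backgrounds rest on single libraries: when 1 library was left out, the share of all genes that passed was 0.835% to 16.3% among US cells, lowest without Δ/+ US replicate 4, and 0.416% to 10.8% among LPS cells, lowest without Δ/+ LPS replicate 2. No member passed the test of the difference between the LPS responses of the genotypes, where 0.00479% of all genes, 1 gene, did. At an unadjusted p under 0.05 there were 3 of the 30 members (Rxra, Vdr and Rara), as against 1873 of all 20865 genes tested. These shares are similar, so the count is no result about the receptors as a group. DESeq2 and a fit with the culture as a block also called 0 members, where 116 and 106 of all genes passed. Over all comparisons, 20 members passed in at least 1 comparison and 10 tested members in none. That count has no value over all genes beside it here and says nothing about the receptors as a group. In these bulk libraries, fewer cells of a type and less RNA per cell cannot be told apart.

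**Figure D1:**
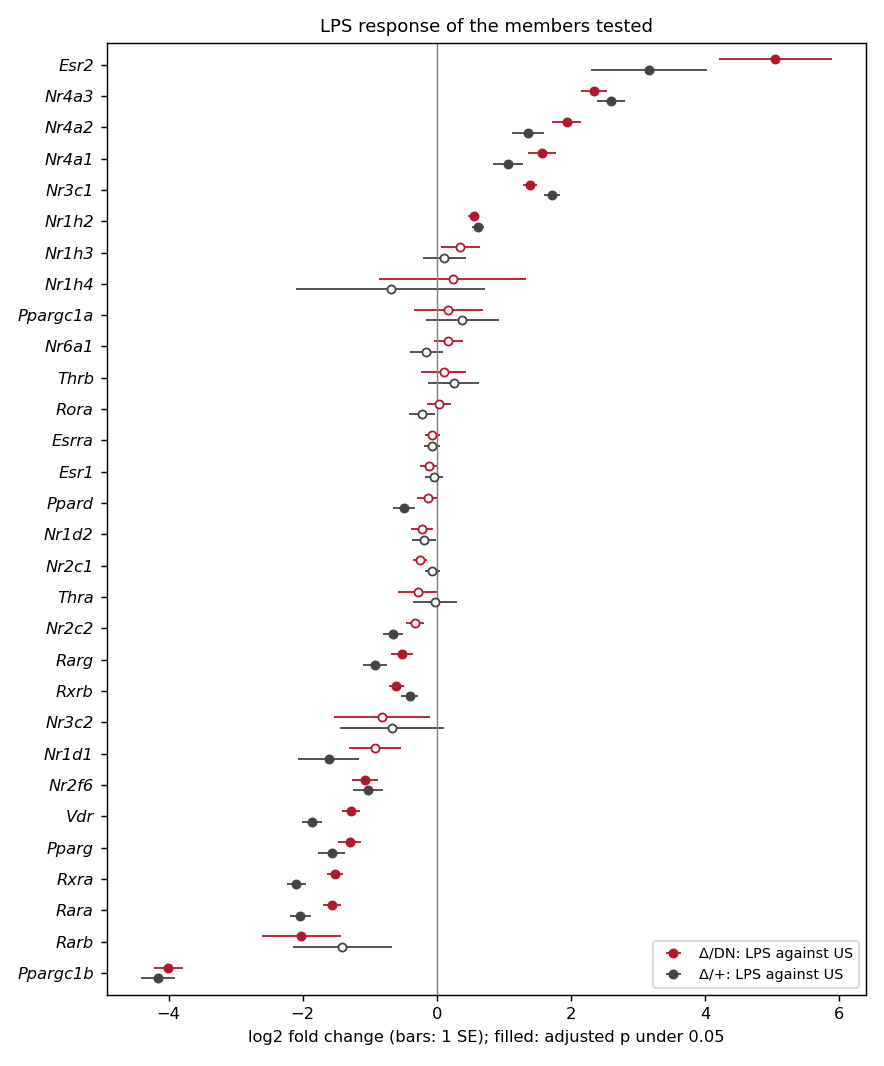
Log2 fold change of LPS over US for the 30 members tested (rows), in Δ/DN cells (red) and Δ/+ cells (dark grey); bars are 1 SE and filled points have an adjusted p under 0.05. Ppargc1b lies near -4 in both genotypes, Rxra, Rara, Vdr and Pparg lie between -2.10 and -1.28, and the NR4A genes and Nr3c1 lie above 1.

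RXR is the shared partner of the lipid, vitamin and retinoid receptors. Rxra measured 18.3, 18.4, 20.5 and 21.1 CPM in the Δ/DN LPS libraries, against 55.8, 40.5, 71.7 and 59.0 CPM in the Δ/DN US libraries. Among Δ/+ cells Rxra stood at 17.8, 15.9 and 18.9 CPM in the LPS libraries, against 66.5, 72.0, 73.1 and 119.9 CPM in the US libraries. All LPS libraries lay below all US libraries of their genotype. The log2 fold change was -1.52 ± 0.12 in Δ/DN and -2.10 ± 0.14 in Δ/+ cells (± SE throughout; fitted with a term for library set, so a fitted value can differ from the ratio of group means; adjusted p = 2.33e-07 and 4.21e-08). The fall was smaller in Δ/DN cells, with a log2 fold change of 0.58 ± 0.18 on the log2 scale, with a 95% interval of 0.22 to 0.93, which did not pass over all genes (adjusted p = 0.335). Among LPS libraries the log2 difference of Δ/DN over Δ/+ was -0.06 ± 0.14 (95% interval -0.33 to 0.21, adjusted p = 0.835). Among US libraries Rxra was lower in Δ/DN, with a log2 difference of -0.64 ± 0.12 (adjusted p = 0.00968), with overlapping ranges. That call was lost without the highest library, Δ/+ US replicate 4 (-0.50 ± 0.13, adjusted p = 0.0854), without the lowest, Δ/DN US replicate 2 (-0.55 ± 0.13, adjusted p = 0.0506), and without a term for the library set (-0.55 ± 0.18, adjusted p = 0.084); within set 2 it was -0.57 ± 0.13 (adjusted p = 0.03). Rxrb measured 11.6, 13.0, 13.4 and 14.1 CPM in the Δ/DN LPS libraries, against 17.8, 21.6, 17.5 and 22.3 CPM in the Δ/DN US libraries. Among Δ/+ cells Rxrb stood at 13.3, 14.0 and 10.7 CPM in the LPS libraries, against 15.1, 17.9, 17.1 and 18.4 CPM in the US libraries. Rxrb, which encodes another RXR, fell with a log2 fold change of -0.60 ± 0.11 in Δ/DN and -0.40 ± 0.13 in Δ/+ cells (adjusted p = 0.000437 and 0.0149), without overlap of the LPS and US ranges. Its Δ/+ call was lost without Δ/+ LPS replicate 3 (-0.30 ± 0.13, adjusted p = 0.0896) and without Δ/+ US replicate 2 (-0.36 ± 0.14, adjusted p = 0.0511). Rxrg, the remaining RXR, had 1 read in all.

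Among the retinoic acid receptors, Rara encodes the form most expressed here. Rara measured 26.1, 32.0, 26.3 and 42.5 CPM in the Δ/DN LPS libraries, against 81.5, 81.6, 98.8 and 116 CPM in the Δ/DN US libraries. Among Δ/+ cells Rara stood at 21.9, 18.0 and 24.1 CPM in the LPS libraries, against 83.6, 81.1, 90.9 and 123 CPM in the US libraries. The LPS libraries were below every US library, and the log2 fold change was -1.57 ± 0.14 in Δ/DN and -2.04 ± 0.16 in Δ/+ cells (adjusted p = 4.77e-07 and 1.34e-07; difference 0.47 ± 0.20, adjusted p = 0.506). The US means were 94.6 ± 16.7 CPM in Δ/DN and 94.6 ± 19.3 CPM in Δ/+ cells (SD, n = 4 each), with a log2 difference of -0.09 ± 0.14 (95% interval -0.36 to 0.18, adjusted p = 0.728). Rarg measured 13.6, 11.8, 17.9 and 14.7 CPM in the Δ/DN LPS libraries, against 20.3, 12.0, 29.1 and 23.9 CPM in the Δ/DN US libraries. Among Δ/+ cells Rarg stood at 10.7, 10.4 and 12.8 CPM in the LPS libraries, against 18.3, 21.6, 20.9 and 38.9 CPM in the US libraries. Rarg, which encodes another of these receptors, fell with a log2 fold change of -0.52 ± 0.16 in Δ/DN and -0.92 ± 0.18 in Δ/+ cells (adjusted p = 0.0142 and 0.000624). The Δ/+ ranges did not overlap, while Δ/DN US replicate 2 lay within the range of the Δ/DN LPS libraries. The Δ/DN call was lost without Δ/DN LPS replicate 4 (adjusted p = 0.0518), without Δ/DN US replicate 1 (adjusted p = 0.0777), without the set term (adjusted p = 0.0956), without Δ/DN culture 3 (adjusted p = 0.0728) and within set 2 (-0.32 ± 0.21, adjusted p = 0.255).

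Rarb, the receptor gene known to be induced by retinoic acid through a repeat in its own promoter, had few reads: 26 in Δ/DN LPS, 127 in Δ/DN US, 9 in Δ/+ LPS and 32 in Δ/+ US libraries. Rarb measured 0.167, 0.178, 0.0281 and 0.0236 CPM in the Δ/DN LPS libraries, against 0.498, 0.607, 0.182 and 0.173 CPM in the Δ/DN US libraries. Among Δ/+ cells Rarb stood at 0.0545, 0.0484 and 0.0262 CPM in the LPS libraries, against 0.0436, 0.0239, 0.213 and 0.0582 CPM in the US libraries. The highest Δ/DN US levels were in replicates 1 and 2, both of set 2, and the highest Δ/+ US level was in replicate 3. It fell with LPS in Δ/DN cells, with overlapping ranges and a log2 fold change of -2.02 ± 0.59 (adjusted p = 0.0101; within set 2, -1.64 ± 0.82, adjusted p = 0.132) and the log2 fold change was -1.41 ± 0.74 in Δ/+ cells, where it did not pass (adjusted p = 0.133). Among US cells it was higher in Δ/DN, with a log2 difference of 2.27 ± 0.59 (adjusted p = 0.0275), with overlapping ranges; within set 2 the value was 2.41 ± 0.74 (adjusted p = 0.0745), and without the set term the adjusted p was 0.112. Leaving out replicate 1, 2 or 4 of Δ/DN US, or of Δ/+ US, also ended that call, with log2 differences of 1.90 to 2.96 over the 15 refits and adjusted p up to 0.0978. Exons of Top2b, on the opposite strand, cover 34.1% of the exonic bases of Rarb, and use of strand in the counting was not stated. Top2b was lower in Δ/DN US, with a log2 difference of -0.31 ± 0.08 (adjusted p = 0.0341), at 101 CPM in Δ/DN and 122 CPM in Δ/+. Like Rarb, Top2b fell with LPS, with log2 fold changes of -0.31 ± 0.08 in Δ/DN and -0.59 ± 0.09 in Δ/+ cells (adjusted p = 0.00587 and 9.13e-05). The RefSeq promoter window of Rarb (250 bases before to 50 after the start; build GRCm38.p6, chr14:16575427-16575726, minus strand) is shown because it holds the repeat itself, in capitals: GTTCA, 6 bases of any kind and GTTCA again, starting 52 bases before the start site. This pattern, searched on both strands, is in 0.0761% of the 32851 RefSeq windows and in no other member's window.
Rarb: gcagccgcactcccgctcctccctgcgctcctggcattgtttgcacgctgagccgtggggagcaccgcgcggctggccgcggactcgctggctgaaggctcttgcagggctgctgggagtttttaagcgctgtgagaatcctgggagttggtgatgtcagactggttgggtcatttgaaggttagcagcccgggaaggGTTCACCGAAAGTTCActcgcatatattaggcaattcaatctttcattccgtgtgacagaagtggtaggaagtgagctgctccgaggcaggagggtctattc

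The vitamin D receptor and the PPARs also pair with RXR. Vdr measured 24.2, 32.2, 21.8 and 25.3 CPM in the Δ/DN LPS libraries, against 71.8, 73.1, 53.3 and 54.1 CPM in the Δ/DN US libraries. Among Δ/+ cells Vdr stood at 22.6, 16.4 and 20.9 CPM in the LPS libraries, against 64.1, 63.2, 78.1 and 71.9 CPM in the US libraries. Vdr, the receptor for calcitriol, fell, with a log2 fold change of -1.28 ± 0.13 in Δ/DN and -1.86 ± 0.15 in Δ/+ cells, without overlap of ranges (adjusted p = 1.69e-06 and 1.78e-07); the difference of the responses was 0.58 ± 0.19 (95% interval 0.20 to 0.95, adjusted p = 0.364). Pparg measured 4.86, 5.24, 4.49 and 7.18 CPM in the Δ/DN LPS libraries, against 13.7, 11.2, 13.0 and 15.8 CPM in the Δ/DN US libraries. Among Δ/+ cells Pparg stood at 6.12, 3.85 and 6.96 CPM in the LPS libraries, against 16.8, 15.4, 18.5 and 18.6 CPM in the US libraries. Pparg encodes a fatty acid receptor that GM-CSF is known to induce in alveolar macrophages. It fell, with a log2 fold change of -1.30 ± 0.18 in Δ/DN and -1.57 ± 0.20 in Δ/+ cells (adjusted p = 2.49e-05 and 1.25e-05), again with every LPS library below every US library. Ppard measured 20.8, 29.3, 24.7 and 42.0 CPM in the Δ/DN LPS libraries, against 29.6, 29.0, 31.7 and 37.3 CPM in the Δ/DN US libraries. Among Δ/+ cells Ppard stood at 19.1, 19.3 and 25.0 CPM in the LPS libraries, against 29.4, 29.7, 32.2 and 33.5 CPM in the US libraries. Ppard, another fatty acid receptor, fell in Δ/+ cells, with a log2 fold change of -0.49 ± 0.17 (adjusted p = 0.0266), and in Δ/DN cells, where the ranges overlapped, its log2 fold change was -0.14 ± 0.15 (adjusted p = 0.498). The responses were not shown to differ (difference 0.36 ± 0.23, 95% interval -0.09 to 0.80, adjusted p = 0.71). Leaving out any of Δ/+ LPS replicates 1 and 2 or Δ/+ US replicates 1, 2 and 3 ended the Δ/+ call, with log2 values of -0.63 to -0.42 over the 15 refits and adjusted p up to 0.103. Ppara, the third PPAR, had 16 reads in all.

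The liver X receptors, which sense oxysterols and drive cholesterol export, are encoded by Nr1h2 and Nr1h3. Nr1h2 measured 60.4, 54.1, 61.2 and 56.0 CPM in the Δ/DN LPS libraries, against 35.1, 35.9, 47.5 and 41.4 CPM in the Δ/DN US libraries. Among Δ/+ cells Nr1h2 stood at 61.1, 64.9 and 58.6 CPM in the LPS libraries, against 40.2, 40.8, 39.0 and 48.0 CPM in the US libraries. Every LPS library was above every US library of its genotype, and Nr1h2 rose with a log2 fold change of 0.55 ± 0.08 in Δ/DN and 0.61 ± 0.09 in Δ/+ cells (adjusted p = 5.6e-05 and 4.52e-05). Nr1h3 measured 6.84, 5.77, 8.40 and 8.38 CPM in Δ/DN LPS, against 5.02, 2.52, 11.0 and 5.38 CPM in Δ/DN US libraries. Nr1h3 was lowest in Δ/DN US replicate 2 and highest in Δ/DN US replicate 3. Its log2 fold change was 0.35 ± 0.30 in Δ/DN and 0.11 ± 0.32 in Δ/+ cells (adjusted p = 0.357 and 0.811). Without Δ/DN US replicate 3 the Δ/DN value was 0.75 ± 0.24 (adjusted p = 0.0189) and the log2 difference of Δ/DN US over Δ/+ US was -0.77 ± 0.24 (adjusted p = 0.0444), against -0.46 ± 0.32 (adjusted p = 0.389) with it. The thyroid hormone receptor genes Thra and Thrb and the bile acid receptor gene Nr1h4 passed in no comparison, with group means of 3.27 to 5.12, 0.346 to 0.575 and 0.0262 to 0.100 CPM in that order.

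**Figure D2:**
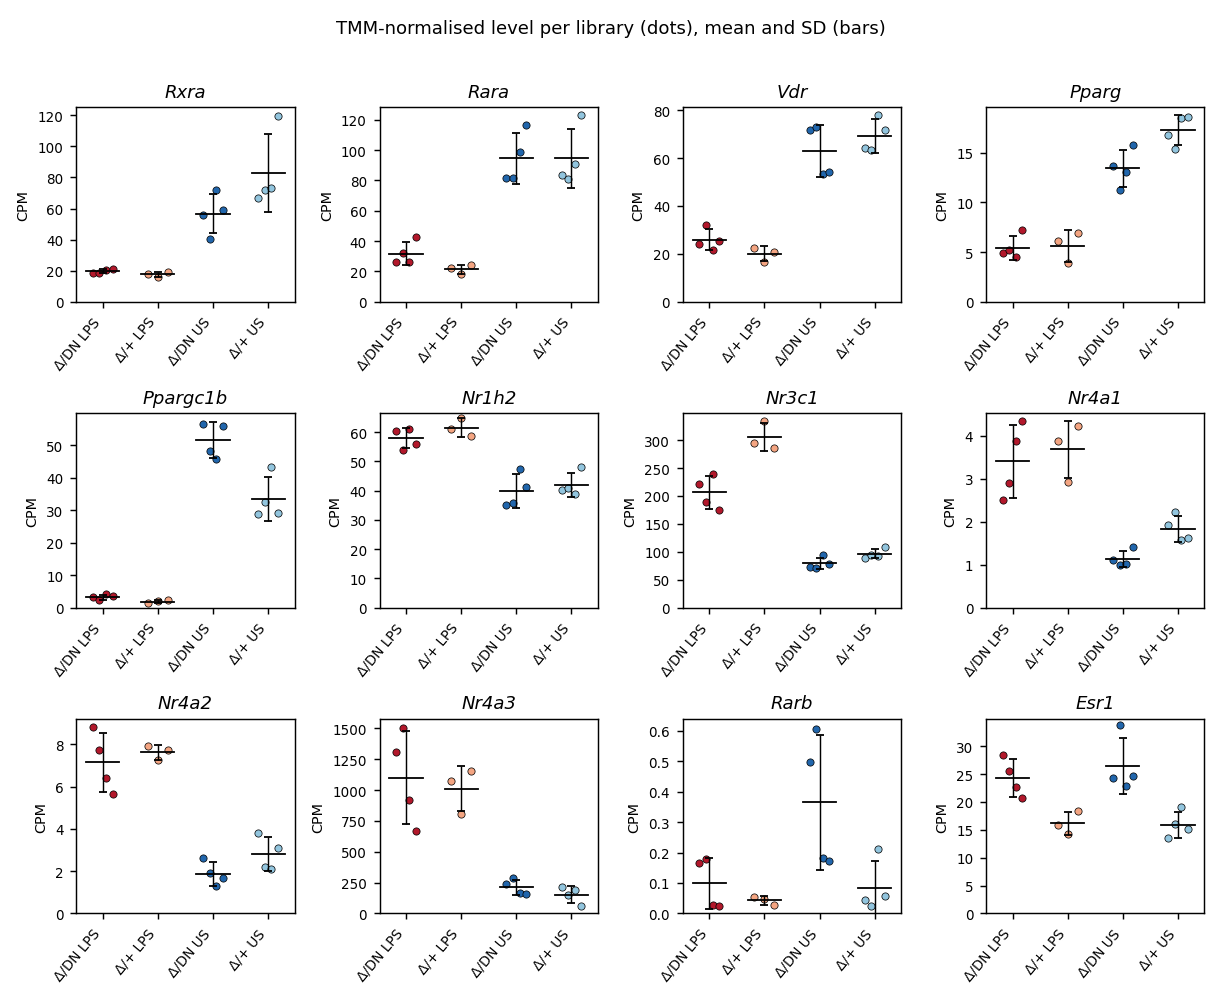
CPM in every library (dots) of 12 members called in at least 1 comparison, with group mean and SD (bars; the lower bar of Rarb in Δ/+ US is cut at 0), in Δ/DN LPS, Δ/+ LPS, Δ/DN US and Δ/+ US cells. Rxra, Rara, Vdr, Pparg and Ppargc1b are lower in all LPS libraries than in US libraries, Nr1h2, Nr3c1 and the NR4A genes are higher, and Esr1 is higher in all Δ/DN libraries than in Δ/+ libraries of the same treatment.

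Steroid receptors bind hormones without RXR. Nr3c1 measured 222, 189, 239 and 175 CPM in the Δ/DN LPS libraries, against 73.1, 71.7, 94.2 and 77.3 CPM in the Δ/DN US libraries. Among Δ/+ cells Nr3c1 stood at 295, 335 and 287 CPM in the LPS libraries, against 88.9, 94.9, 92.7 and 108 CPM in the US libraries. Nr3c1, the glucocorticoid receptor gene, rose with a log2 fold change of 1.39 ± 0.11 in Δ/DN and 1.71 ± 0.12 in Δ/+ cells, without overlap (adjusted p = 1.79e-07 and 5.17e-08). With LPS it was lower in Δ/DN, with a log2 difference of -0.64 ± 0.12 (adjusted p = 0.0119), and each Δ/DN LPS library was below each Δ/+ LPS library. Within set 2 that difference was -0.57 ± 0.10 (adjusted p = 0.0109), and it missed the threshold without Δ/+ LPS replicate 2 (-0.57 ± 0.14, adjusted p = 0.0768) and without Δ/DN LPS replicate 2 (-0.62 ± 0.15, adjusted p = 0.0597). Among US cells the difference was -0.32 ± 0.11 (adjusted p = 0.0782), and the change of response was -0.32 ± 0.16 (95% interval -0.64 to -0.01, adjusted p = 0.595). That interval assumes normal errors, and the F test of the change did not reach an unadjusted p under 0.05.

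Esr1 encodes estrogen receptor α. It measured 24.4, 33.8, 22.9 and 24.7 CPM in the Δ/DN US libraries, against 13.5, 16.0, 19.1 and 15.2 CPM in the Δ/+ US libraries. With LPS it measured 28.5, 25.5, 22.8 and 20.7 CPM in Δ/DN, against 15.9, 14.3 and 18.4 CPM in Δ/+ libraries. All Δ/DN libraries were above all Δ/+ libraries of the same treatment, by 0.78 ± 0.13 on the log2 scale among US cells (adjusted p = 0.00546) and 0.70 ± 0.15 among LPS cells (adjusted p = 0.0157), which is 1.72-fold and 1.63-fold. The US difference passed in 15 of 15 refits without 1 library and in 8 of 8 other settings. Within set 2 it was 0.82 ± 0.18 (adjusted p = 0.0247). The LPS difference passed in 12 of 15 refits and 8 of 8 settings (0.74 ± 0.18 within set 2, adjusted p = 0.0288); the adjusted p was 0.0632 without Δ/+ LPS replicate 1, 0.097 without Δ/+ LPS replicate 2 and 0.0597 without Δ/DN LPS replicate 2. The log2 fold change of Esr1 with LPS was -0.12 ± 0.13 in Δ/DN and -0.04 ± 0.14 in Δ/+ cells (95% intervals -0.37 to 0.13 and -0.32 to 0.23; adjusted p = 0.466 and 0.835).

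Esr2, which encodes estrogen receptor β, was detected almost entirely with LPS. It had 68 reads over the Δ/DN LPS libraries, against 2 in the Δ/DN US libraries, and 24 over the Δ/+ LPS libraries, against 4 in the Δ/+ US libraries. It had 8, 22, 14 and 24 reads in the Δ/DN LPS libraries, against 1, 0, 0 and 1 in the Δ/DN US libraries. Among Δ/+ cells it had 10, 4 and 10 reads in the LPS libraries, against 0, 0, 2 and 2 in the US libraries. The LPS and US libraries did not overlap. Adjusted for depth, the ratio of LPS to US was 42.3 (95% counting interval 11.3 to 356) in Δ/DN and 9.17 (95% counting interval 3.15 to 36.4) in Δ/+ cells. In most libraries more genes had 2 reads than 1 read, so reads may not be independent counts and such intervals, which cover counting error only, may be too narrow. Esr2 passed the low-count filter only through its LPS libraries, and it dropped out of the test without replicate 2, 3 or 4 of Δ/DN LPS, without Δ/DN culture 3 or 4 and within set 2. The edgeR calls it received (adjusted p = 0.000168 in Δ/DN and 0.00716 in Δ/+ cells, difference of the responses 1.89 ± 1.32, adjusted p = 0.739) therefore follow from that choice and add nothing to the reads. The mineralocorticoid receptor gene Nr3c2, with 4 to 43 reads per library, passed in no comparison.

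The NR4A receptors are immediate-early genes with no established natural ligand, and all 3 rose with LPS. Nr4a1 measured 2.50, 2.90, 3.89 and 4.34 CPM in the Δ/DN LPS libraries, against 1.10, 1.00, 1.01 and 1.40 CPM in the Δ/DN US libraries. Among Δ/+ cells Nr4a1 stood at 3.89, 2.93 and 4.23 CPM in the LPS libraries, against 1.92, 2.23, 1.57 and 1.63 CPM in the US libraries. The log2 fold change of Nr4a1 was 1.57 ± 0.21 in Δ/DN and 1.06 ± 0.22 in Δ/+ cells (adjusted p = 1.97e-05 and 0.00097), with no overlap. Nr4a2 measured 8.81, 7.74, 6.39 and 5.65 CPM in the Δ/DN LPS libraries, against 2.63, 1.93, 1.27 and 1.65 CPM in the Δ/DN US libraries. Among Δ/+ cells Nr4a2 stood at 7.91, 7.24 and 7.72 CPM in the LPS libraries, against 3.80, 2.22, 2.08 and 3.07 CPM in the US libraries. Nr4a2 likewise did not overlap between LPS and US, with log2 fold changes of 1.94 ± 0.22 in Δ/DN and 1.36 ± 0.23 in Δ/+ cells (adjusted p = 4.37e-06 and 0.000202). Nr4a3 measured 1308, 1503, 922 and 667 CPM in the Δ/DN LPS libraries, against 239, 288, 167 and 161 CPM in the Δ/DN US libraries. Among Δ/+ cells Nr4a3 stood at 1075, 809 and 1152 CPM in the LPS libraries, against 215, 149.7, 189 and 58.2 CPM in the US libraries. Nr4a3, with by far the highest level, rose, with a log2 fold change of 2.34 ± 0.20 in Δ/DN and 2.60 ± 0.21 in Δ/+ cells (adjusted p = 3.11e-07 and 1.84e-07). None of the 3 passed the test of a different response between genotypes (Nr4a1 0.52 ± 0.30, Nr4a2 0.58 ± 0.32, Nr4a3 -0.26 ± 0.28; adjusted p = 0.668, 0.637 and 0.845).

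Among US cells Nr4a1 was lower in Δ/DN, with a log2 difference of -0.77 ± 0.21 (adjusted p = 0.0355), with each of the 4 Δ/DN US libraries below each Δ/+ US library. Nr4a3 was higher in Δ/DN US cells, with a log2 difference of 0.81 ± 0.20 (adjusted p = 0.0224), overlapping ranges and 1 low library, Δ/+ US replicate 4. Nr4a2 had a log2 difference of -0.52 ± 0.22 (adjusted p = 0.134). Within set 2 the values were -0.87 ± 0.25 for Nr4a1 and 0.50 ± 0.18 for Nr4a3 (adjusted p = 0.0629 and 0.123), and without the set term they were -0.70 ± 0.22 and 0.48 ± 0.35 (adjusted p = 0.0671 and 0.45). Leaving out replicate 1, 2 or 4 of Δ/DN US, replicate 1, 2 or 4 of Δ/+ US, or replicate 1 of Δ/+ LPS ended the Nr4a1 call, with log2 values of -0.97 to -0.66 over the 15 refits and adjusted p up to 0.11. Without Δ/+ US replicate 4, Nr4a3 was at 0.54 ± 0.18 (adjusted p = 0.139), and its call was also lost without Δ/DN US replicate 2 (0.82 ± 0.24, adjusted p = 0.0792), Δ/DN US replicate 4 (0.77 ± 0.21, adjusted p = 0.056) or the replicate 2 library of Δ/+ US (0.76 ± 0.22, adjusted p = 0.0735).

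The promoter windows of the 3 NR4A genes are shown because these genes moved together with LPS. They are RefSeq windows of 300 bases, from 250 before to 50 after the annotated start, in build GRCm38.p6, written along the gene's strand: Nr4a1 at chr15:101266596-101266895 (plus strand), Nr4a2 at chr2:57123954-57124253 (minus strand) and Nr4a3 at chr4:48045055-48045354 (plus strand). Capitals mark each match of the cAMP response element core TGACG or, on the other strand, its reverse complement.
Nr4a1: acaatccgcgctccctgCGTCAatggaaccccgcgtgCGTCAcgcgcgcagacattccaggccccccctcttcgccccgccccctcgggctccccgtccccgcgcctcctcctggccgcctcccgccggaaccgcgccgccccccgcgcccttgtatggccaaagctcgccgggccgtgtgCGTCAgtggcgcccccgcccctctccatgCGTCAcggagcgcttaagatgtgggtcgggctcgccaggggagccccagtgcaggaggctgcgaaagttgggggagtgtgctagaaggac
Nr4a2: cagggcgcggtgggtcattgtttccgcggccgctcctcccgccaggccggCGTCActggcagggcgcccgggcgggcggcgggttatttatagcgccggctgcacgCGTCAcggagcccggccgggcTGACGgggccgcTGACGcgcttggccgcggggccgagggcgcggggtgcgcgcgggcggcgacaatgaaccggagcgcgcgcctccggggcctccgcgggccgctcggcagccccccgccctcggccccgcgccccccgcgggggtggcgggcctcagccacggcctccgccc
Nr4a3: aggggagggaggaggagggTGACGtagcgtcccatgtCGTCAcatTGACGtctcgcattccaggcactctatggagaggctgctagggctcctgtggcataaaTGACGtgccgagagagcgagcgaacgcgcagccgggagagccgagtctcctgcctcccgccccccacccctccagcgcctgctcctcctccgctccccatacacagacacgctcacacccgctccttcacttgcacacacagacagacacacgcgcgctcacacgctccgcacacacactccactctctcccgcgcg
Each window held 4 matches, at -233, -213, -69 and -40 in Nr4a1, at -200, -144, -123 and -111 in Nr4a2 and at -231, -213, -205 and -147 in Nr4a3, counted from the start site to the leftmost base. At least 1 match was in 20.8% of the 32851 RefSeq windows, at least 3 in 1.03% and at least 4 in 0.231%. The full element TGACGTCA, which contains TGACG, was in 1.79% of all windows and in none of the NR4A windows. Among the 11 motifs searched on both strands, GGGCGGG (GC box) was also in all 3 windows and in 25.6% of all windows, while TGANTCA (AP-1) and the kappa B motif (GGG and TTTCC with 2 bases between them) were in none of the 3. These matches describe letters, and binding was not measured.

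**Figure D3:**
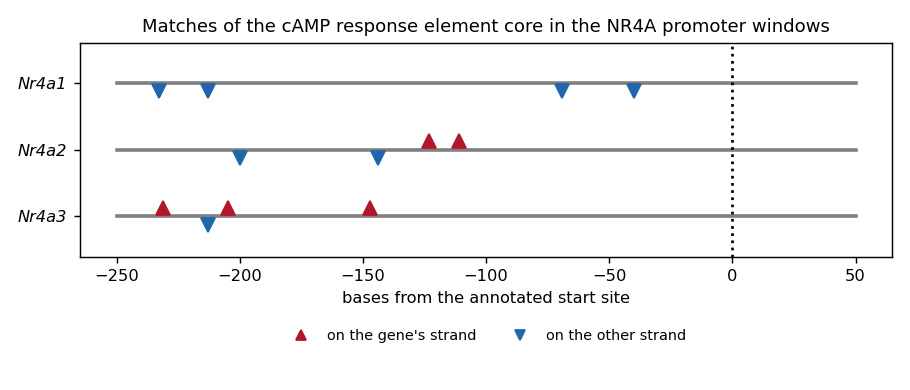
Positions of the 4 matches of TGACG in each NR4A promoter window, in bases from the annotated start site (dotted line), on the gene's strand (red, pointing up) or the other strand (blue, pointing down). All matches lie before the start site, between -233 and -40.

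REV-ERB and ROR receptors bind the same DNA element and set the timing of clock genes. Nr1d1 measured 0.734, 0.488, 0.421 and 0.933 CPM in the Δ/DN LPS libraries, against 1.53, 0.799, 0.767 and 1.77 CPM in the Δ/DN US libraries. Among Δ/+ cells Nr1d1 stood at 0.532, 0.435 and 0.157 CPM in the LPS libraries, against 1.24, 1.17, 0.888 and 1.52 CPM in the US libraries. Nr1d1 (REV-ERBα), a heme-binding repressor, fell in Δ/+ cells, with a log2 fold change of -1.61 ± 0.45 (adjusted p = 0.00825), without overlap. In Δ/DN cells, where cultures 1 and 4 were high and cultures 2 and 3 low in both treatments, the log2 fold change was -0.92 ± 0.39 (adjusted p = 0.0636); with the culture as a block, which pairs the LPS and US library of each culture, it passed at -0.88 ± 0.27 (adjusted p = 0.0125), and it also passed without the low-count filter. The difference between the genotypes' responses was 0.70 ± 0.59 (adjusted p = 0.789). Nr1d1 and Thra share 263 exonic bases on opposite strands, 8.55% of those of Nr1d1, and Thra had log2 fold changes of -0.28 ± 0.30 in Δ/DN and -0.03 ± 0.33 in Δ/+ cells (adjusted p = 0.466 and 0.956). Nr1d2 (REV-ERBβ) and Rora passed nowhere: Nr1d2 had group means of 11.3 to 15.6 CPM, and Rora measured 15.3, 11.8, 13.7 and 9.74 CPM in Δ/DN US, against 18.0, 21.3, 13.2 and 22.7 CPM in Δ/+ US libraries. The Rora difference, -0.58 ± 0.18, had an adjusted p of 0.0515 and passed in 5 of 15 refits without 1 library and in 5 of 8 other settings.

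Of the remaining orphan receptors, 3 passed in a comparison. Nr2f6 measured 6.16, 6.95, 10.1 and 4.71 CPM in the Δ/DN LPS libraries, against 12.8, 13.6, 19.9 and 12.4 CPM in the Δ/DN US libraries. Among Δ/+ cells Nr2f6 stood at 6.83, 6.69 and 6.91 CPM in the LPS libraries, against 13.4, 15.3, 12.0 and 17.9 CPM in the US libraries. Nr2f6, a COUP-TF relative, fell, with a log2 fold change of -1.07 ± 0.19 in Δ/DN and -1.03 ± 0.22 in Δ/+ cells, without overlap (adjusted p = 0.000346 and 0.00114). Exons of Ocel1 on the opposite strand cover 54.4% of its exonic bases; Ocel1 had log2 fold changes of -0.48 ± 0.14 in Δ/DN and -0.31 ± 0.15 in Δ/+ cells (adjusted p = 0.00805 and 0.102), and reads of the pair cannot be told apart if strand was not used. Nr2c2 measured 38.2, 45.4, 39.5 and 45.8 CPM in the Δ/DN LPS libraries, against 51.3, 64.8, 36.8 and 59.0 CPM in the Δ/DN US libraries. Among Δ/+ cells Nr2c2 stood at 34.0, 31.1 and 32.4 CPM in the LPS libraries, against 54.5, 49.7, 46.0 and 51.0 CPM in the US libraries. Nr2c2 (TR4) fell in Δ/+ cells, with a log2 fold change of -0.65 ± 0.15 (adjusted p = 0.00218), and in Δ/DN cells, where Δ/DN US replicate 3 lay below the LPS libraries, the log2 fold change was -0.32 ± 0.13 (adjusted p = 0.0604). That Δ/DN value passed in 4 of 8 other settings, with the culture as a block (-0.30 ± 0.09, adjusted p = 0.0143), without the low-count filter (-0.33 ± 0.12, adjusted p = 0.0365), within set 2 (-0.44 ± 0.14, adjusted p = 0.0201) and without Δ/DN culture 3 (-0.41 ± 0.11, adjusted p = 0.00525). Exons of Mrps25 on the other strand cover 30.7% of Nr2c2, and Mrps25 fell, with log2 fold changes of -0.63 ± 0.10 in Δ/DN and -0.79 ± 0.11 in Δ/+ cells (adjusted p = 7.05e-05 and 2.3e-05).

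Nr2c1 (TR2), the partner of TR4, measured 9.78, 8.27, 10.4 and 8.84 CPM in Δ/DN LPS, against 12.9, 12.7 and 11.5 CPM in Δ/+ LPS libraries. It measured 11.3, 11.6, 10.03 and 11.6 CPM in Δ/DN US, against 14.5, 12.5, 12.1 and 13.0 CPM in Δ/+ US libraries, where the log2 difference of -0.22 ± 0.10 did not pass (adjusted p = 0.194). The LPS ranges did not overlap, and the log2 difference of -0.41 ± 0.12 had an adjusted p of 0.048. It passed in 4 of 15 refits without 1 library, with adjusted p up to 0.185 and log2 values of -0.46 to -0.33: the call was kept without Δ/DN LPS replicate 3, replicate 3 or 4 of Δ/DN US, or replicate 1 of Δ/+ US, and lost without each of the other 11 libraries. Within set 2 it was -0.46 ± 0.13 (adjusted p = 0.0536). Esrra, the estrogen-related receptor that PGC-1 proteins are best known to activate, passed in no comparison. It measured 22.5, 21.4, 19.9 and 24.2 CPM in Δ/DN LPS, against 20.7, 19.9, 29.5 and 22.6 CPM in Δ/DN US libraries. Its log2 fold change with LPS was -0.07 ± 0.11 in Δ/DN (95% interval -0.29 to 0.15) and -0.07 ± 0.12 in Δ/+ cells (95% interval -0.31 to 0.17). Nr6a1 passed nowhere, with group means of 3.08 to 3.49 CPM.

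The PGC-1 coactivators split. Ppargc1b measured 3.14, 2.20, 4.06 and 3.51 CPM in the Δ/DN LPS libraries, against 56.6, 48.3, 45.8 and 55.9 CPM in the Δ/DN US libraries. Among Δ/+ cells Ppargc1b stood at 1.31, 1.98 and 2.25 CPM in the LPS libraries, against 28.7, 32.6, 43.3 and 29.0 CPM in the US libraries. Every LPS library of Ppargc1b was below every US library. The log2 fold change was -4.00 ± 0.22 in Δ/DN and -4.16 ± 0.25 in Δ/+ cells (adjusted p = 1.22e-08 and 2.17e-08), the largest fall among the 30 members tested in both genotypes, and the difference between the responses was 0.15 ± 0.29 (95% interval -0.42 to 0.73, adjusted p = 0.922). Each Δ/DN US library was above each Δ/+ US library, and the US log2 difference was 0.61 ± 0.19 (adjusted p = 0.0614), while with LPS it was 0.76 ± 0.24 with overlapping ranges (adjusted p = 0.0667); neither passed. Ppargc1a, the other PGC-1 gene, had 4 to 27 reads per library, and its LPS changes of 0.17 ± 0.52 in Δ/DN and 0.38 ± 0.54 in Δ/+ cells did not pass (adjusted p = 0.815 and 0.61).

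**Figure D4:**
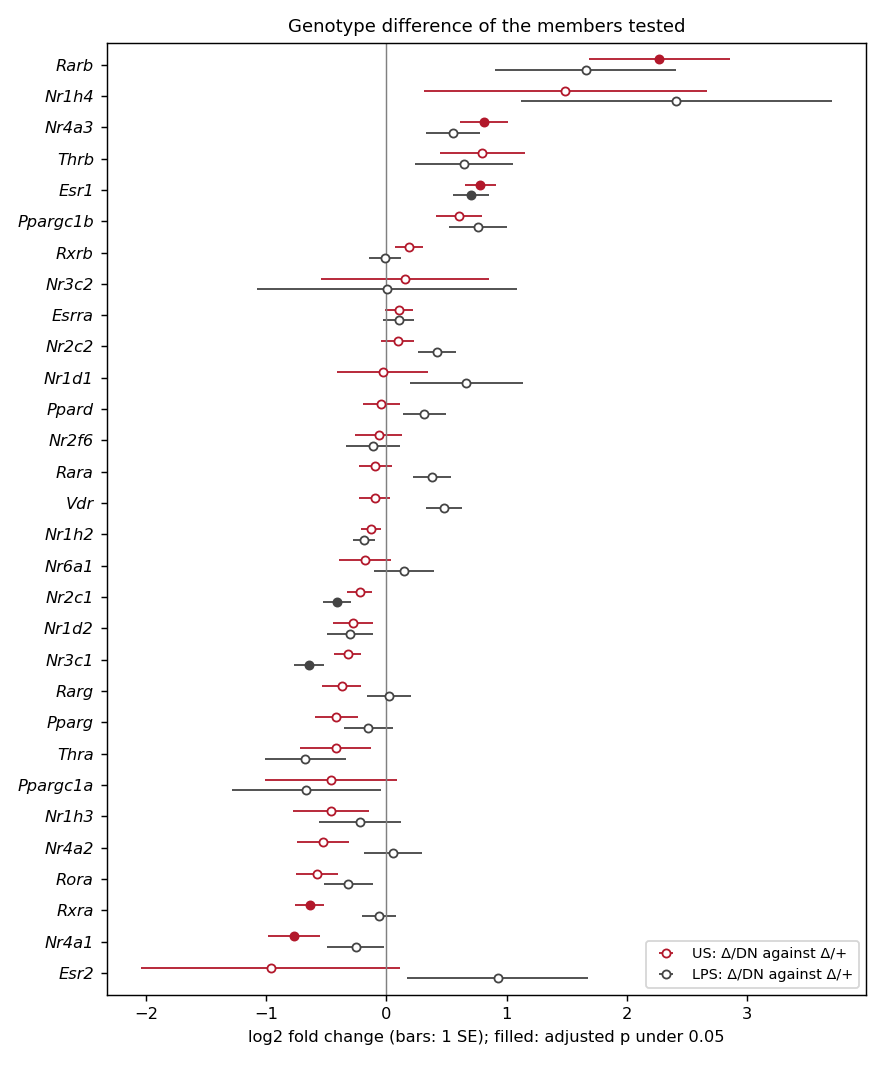
Log2 fold change of Δ/DN over Δ/+ for the 30 members tested (rows), among US cells (red) and LPS cells (dark grey); bars are 1 SE and filled points have an adjusted p under 0.05. Esr1 is filled in both treatments, Rarb, Nr4a3, Rxra and Nr4a1 among US cells and Nr3c1 and Nr2c1 among LPS cells.

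Several members that missed the threshold passed it when 1 library was left out. Among US cells the difference of Δ/DN over Δ/+ passed for Nr3c1 without Δ/DN LPS replicate 4 or Δ/DN US replicate 3 (adjusted p = 0.02 to 0.024). For Ppargc1b it passed without Δ/DN US replicate 3, Δ/DN LPS replicate 2 or 3, or Δ/+ US replicate 3 (adjusted p = 0.0197 to 0.0494). For Rora it passed without Δ/DN LPS replicate 4, replicate 1 or 3 of Δ/DN US, or replicate 3 of Δ/+ LPS or Δ/+ US (adjusted p = 0.016 to 0.0481). Among LPS cells Vdr passed without Δ/DN LPS replicate 1 (0.57 ± 0.16, adjusted p = 0.0426), Rara without Δ/DN LPS replicate 3 (0.47 ± 0.12, adjusted p = 0.0284) and Thra without Δ/DN LPS replicate 1 (-1.13 ± 0.33, adjusted p = 0.0497). With all libraries these differences were 0.48 ± 0.15 for Vdr, 0.38 ± 0.16 for Rara and -0.68 ± 0.34 for Thra (adjusted p = 0.0592, 0.147 and 0.229). For LPS against US in Δ/DN cells, Nr1d1 passed without Δ/+ LPS replicate 3, Δ/DN LPS replicate 4 or Δ/DN US replicate 3 (adjusted p = 0.0288 to 0.0442), Nr2c2 without Δ/DN LPS replicate 4 or Δ/DN US replicate 3 (adjusted p = 0.00185 to 0.0407) and Nr2c1 without Δ/DN LPS replicate 3, Δ/DN US replicate 3 or the replicate 1 library of Δ/+ US (adjusted p = 0.0281 to 0.0475). Nr3c2 passed there without Δ/DN LPS replicate 4 (-1.95 ± 0.69, adjusted p = 0.0305), and Rarb passed in Δ/+ cells without Δ/+ US replicate 2 (-1.82 ± 0.66, adjusted p = 0.0371).

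Cells other than dendritic cells can be present in these cultures, and their markers were summed per library. The summed neutrophil list (10 genes) was 102 to 1131 CPM in Δ/DN LPS, against 58.2 to 114 CPM in Δ/+ LPS libraries. It was 86.4 to 952 CPM in Δ/DN US, against 50.7 to 119 CPM in Δ/+ US libraries, with the highest value of each treatment in Δ/DN culture 4. Of its 10 genes, 1 was higher in Δ/DN in each treatment, Csf3r (1.21 ± 0.24 among US and 1.02 ± 0.27 among LPS cells). That is 10%, beside 10.5% of all genes among US and 8.6% among LPS cells. Without Δ/DN culture 4, 5 members passed among US cells, where 1647 of all genes did. Among LPS cells 2 members (Esr1 and Nr3c1) passed, where 2029 of all genes did, and Nr2c1 did not (-0.39 ± 0.13, adjusted p = 0.0781). Mast cell and basophil genes summed to 34.4 to 66.4 CPM in Δ/DN LPS, against 20.1 to 27.2 CPM in Δ/+ LPS, where Tpsb2 and Cma1 had no read. They summed to 24.9 to 57.6 CPM in Δ/DN US, against 22.8 to 26.9 CPM in Δ/+ US libraries. Of 8 tested, 2 were higher in Δ/DN with LPS, Gata2 (2.81 ± 0.71) and Cd200r3 (1.10 ± 0.26), which is 25%, beside 8.6% of all genes. Among US cells 1 was higher, Cd200r3 (0.74 ± 0.23), which is 12.5%, beside 10.5%. The progenitor list reached 26.6 to 47.4 CPM in Δ/DN US, against 25.1 to 31.7 CPM in Δ/+ US libraries. It reached 27.6 to 52.0 CPM in Δ/DN LPS, where Hoxa9 had no read, against 21.8 to 25.6 CPM in Δ/+ LPS libraries. Of 6 tested, 2 were higher in Δ/DN among US cells, Cd34 (3.30 ± 0.63) and Myb (2.04 ± 0.50), which is 33.3%, beside 10.5% of all genes. With LPS 1 was higher, Cd34 (2.45 ± 0.70), and 1 lower, Meis1 (-1.05 ± 0.28), which is 33.3%, beside 8.6%. Kit is in both the mast cell and the progenitor list and made up most of both sums, which are thus not independent. It averaged 21.4 CPM in Δ/DN US, 16.9 CPM in Δ/+ US, 27.9 CPM in Δ/DN LPS and 16.7 CPM in Δ/+ LPS libraries. Kit did not pass between genotypes in either treatment. Stromal and endothelial genes were lower in sum in Δ/DN, at 11.0 to 17.3 CPM in Δ/DN US, against 24.0 to 31.1 CPM in Δ/+ US libraries. The sums were 20.6 to 25.4 CPM in Δ/DN LPS, against 32.3 to 43.7 CPM in Δ/+ LPS libraries. Of 11 tested, 2 were higher and 2 lower among US cells (36.4%, beside 10.5% of all genes). With LPS 1, Lepr, was lower (9.09%, beside 8.6%). Most of the Δ/+ US sum was Lepr and Pecam1, at means of 13.2 and 9.47 CPM. These were the 2 lower among US cells (-1.08 ± 0.21 and -1.11 ± 0.25). The matrix genes Col1a2 and Sparc went the other way (2.48 ± 0.73 and 2.57 ± 0.63), at 0.745 and 0.353 CPM in Δ/DN US and 0.202 and 0.0800 CPM in Δ/+ US libraries. The T, NK and innate lymphoid list was nearly all Il7r, a cytokine receptor gene, at 119 CPM in Δ/DN US and 218 CPM in Δ/+ US libraries, where it was lower in Δ/DN (-0.89 ± 0.23, adjusted p = 0.0291). Il7r averaged 209 CPM in Δ/DN LPS and 301 CPM in Δ/+ LPS libraries. The defining genes of T and NK cells, Cd3e, Cd3g, Cd3d, Ncr1 and Zap70, averaged 0.0650 CPM or less in every group, and Cd3g and Zap70 had no read in Δ/+ LPS. With Il7r, the list's sum was 89.7 to 153 CPM in Δ/DN US, against 157 to 304 CPM in Δ/+ US libraries, and 141 to 253 CPM in Δ/DN LPS, against 287 to 318 CPM in Δ/+ LPS libraries. The median log2 difference of its 4 genes tested was 0.39 among US and 0.68 among LPS cells, the other sign from that of Il7r. B cell genes summed to less than 4 CPM in every library, and of 7 tested 1 was lower among US cells (14.3%, beside 10.5% of all genes). Of the 10 macrophage markers 3 were higher and 2 lower in Δ/DN among US cells, which is 50%, beside 10.5% of all genes, and 1 was higher and 2 lower with LPS, which is 30%, beside 8.6%. The complement gene C1qa was higher (0.94 ± 0.14 among US and 0.75 ± 0.16 among LPS cells; adjusted p = 0.0039 and 0.0161), and the scavenger receptor gene Marco was lower (-2.53 ± 0.53 and -2.83 ± 0.52; adjusted p = 0.0148 and 0.0115). Of the 10 conventional dendritic cell markers 3 were higher and 0 lower among US cells, which is 30%, beside 10.5% of all genes. The list median was 0.51 there, and 1 was higher with LPS (10%, beside 8.6%). Those higher among US cells were Kmo, Xcr1 and Dpp4 (2.06 ± 0.40, 2.64 ± 0.61 and 1.24 ± 0.36; adjusted p = 0.0125, 0.0183 and 0.0459). Xcr1 was very low, at 0.0864 to 0.388 CPM in Δ/DN US and 0 to 0.0463 CPM in Δ/+ US libraries. Kmo measured 10.9 to 49.3 CPM in Δ/DN US, against 3.78 to 12.7 CPM in Δ/+ US libraries. Dpp4 measured 5.84 to 32.9 CPM in Δ/DN US, against 2.62 to 11.0 CPM in Δ/+ US libraries. These markers were named after their values were seen. The part of these cell types in the genotype differences was not tested.

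Genes that encode partners of the receptors changed with LPS in both directions, where 48.2% of all genes passed in Δ/DN and 47.7% in Δ/+ cells. Of 10 corepressor and HDAC3 complex genes, 2 rose and 3 fell in Δ/DN cells and 3 rose and 4 fell in Δ/+ cells, with median log2 fold changes of -0.04 and -0.07 (all genes -0.09 and -0.08). Tbl1x, a subunit of the corepressor complex that carries HDAC3, rose, with a log2 fold change of 0.97 ± 0.08 in Δ/DN and 0.73 ± 0.09 in Δ/+ cells (adjusted p = 2.9e-07 and 7.7e-06). Of 18 coactivator genes, 12 rose and 1 fell in Δ/DN and 8 rose and 4 fell in Δ/+ cells, with medians of 0.40 and 0.23. Ncoa7, an estrogen receptor-associated coactivator, rose, with a log2 fold change of 1.86 ± 0.11 in Δ/DN and 1.42 ± 0.11 in Δ/+ cells (adjusted p = 1.43e-08 and 1.67e-07). Cited2, which binds CBP and p300, rose with log2 fold changes of 2.17 ± 0.19 in Δ/DN and 2.64 ± 0.20 in Δ/+ cells (adjusted p = 5.98e-07 and 1.84e-07). Pprc1, a relative of the PGC-1 genes, fell in Δ/+ cells, with a log2 fold change of -1.14 ± 0.11 (adjusted p = 9.38e-07). Between genotypes, 3 corepressor genes were higher and 0 lower in Δ/DN LPS cells, Tbl1x (0.45 ± 0.09), Lcor (0.45 ± 0.13) and Tbl1xr1 (0.37 ± 0.11; adjusted p = 0.0157, 0.0446 and 0.0485). These were 30% of the 10, beside 8.6% of all genes (5.37% higher), and 0 to 3 passed when 1 library was left out. Among US cells no corepressor gene passed, where 10.5% of all genes did. Of the coactivator genes 2 were higher and 1 lower in Δ/DN LPS cells (16.7%, beside 8.6% of all genes), Ncoa7 (0.76 ± 0.12), Tacc1 (0.50 ± 0.11) and Ncoa4 (-0.55 ± 0.15; adjusted p = 0.00594, 0.0215 and 0.0386). Among US cells 0 were higher and 2 lower (11.1%, beside 10.5%), Pprc1 (-0.45 ± 0.10) and Crebbp (-0.30 ± 0.08; adjusted p = 0.0159 and 0.0329).

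**Figure D5:**
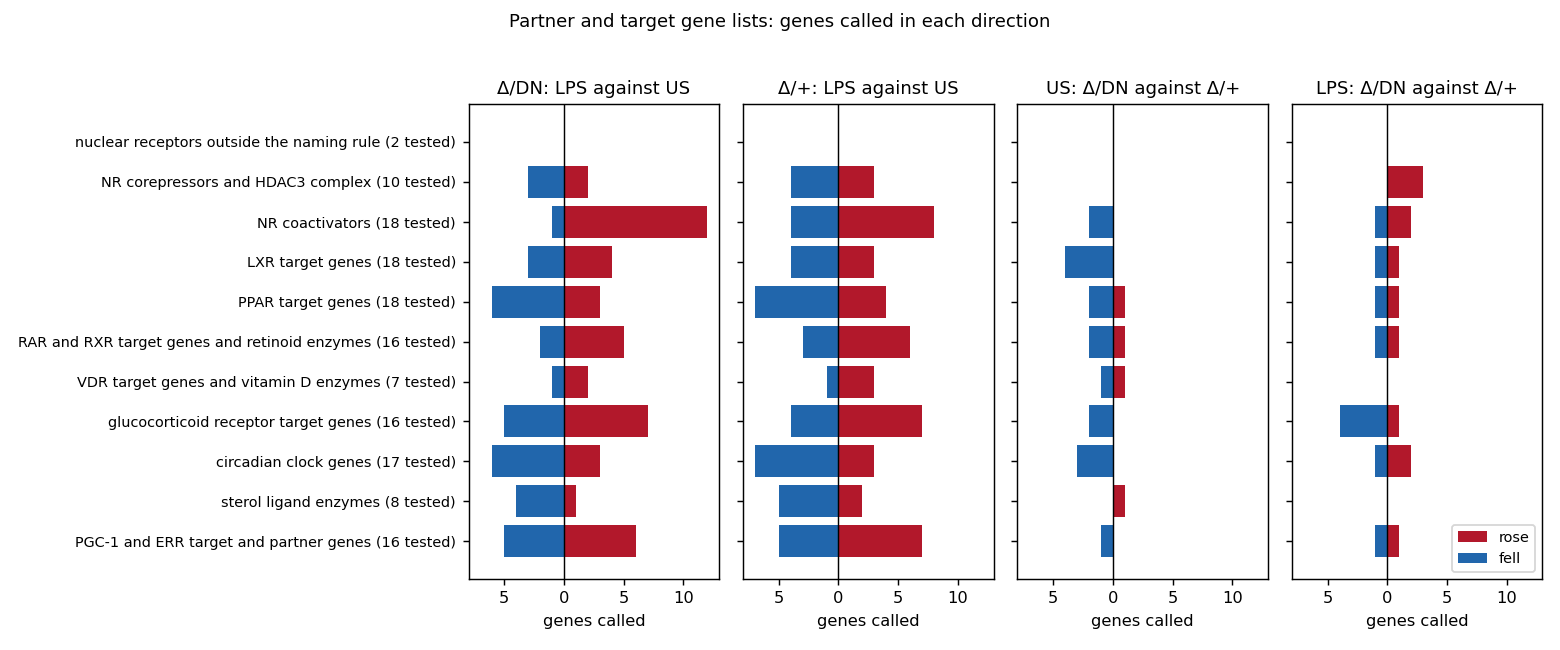
Number of genes in each partner or target list (rows, with the number tested) that passed at an adjusted p under 0.05, higher (red, to the right) or lower (blue, to the left), in 4 comparisons. The longest bar is that of the coactivators in Δ/DN cells with LPS, where 12 rose and 1 fell; genotype bars hold at most 4 genes a side.

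Lists of known target genes held members that rose and members that fell. Of 18 LXR targets, 4 rose and 3 fell with LPS in Δ/DN and 3 rose and 4 fell in Δ/+ cells. The fatty acid synthase gene Fasn fell, with a log2 fold change of -1.36 ± 0.15 in Δ/DN and -2.30 ± 0.18 in Δ/+ cells (adjusted p = 4.31e-06 and 1.32e-07). The desaturase gene Scd2 fell with log2 fold changes of -2.15 ± 0.25 in Δ/DN and -2.65 ± 0.29 in Δ/+ cells (adjusted p = 1.02e-05 and 4.99e-06). Mertk, a receptor for dying cells, rose, with a log2 fold change of 1.16 ± 0.20 in Δ/DN and 1.23 ± 0.21 in Δ/+ cells (adjusted p = 0.000234 and 0.000272). Among US cells 4 LXR targets were lower and 0 higher in Δ/DN, where 5.45% of all genes were lower. These were Mylip (-0.74 ± 0.16), which degrades the LDL receptor, the lipid droplet gene Plin2 (-0.68 ± 0.18), Srebf1 (-0.33 ± 0.09) and the cholesterol exporter gene Abca1 (-0.44 ± 0.13; adjusted p = 0.0162, 0.0271, 0.0349 and 0.0492). The list's median was -0.37 there and 0.01 over all genes. The count was 0 to 8 when 1 library was left out, with no call left after dropping replicate 2 of either US genotype or replicate 4 of Δ/+ US. Among LPS cells 1 LXR target was higher in Δ/DN, Fasn (0.70 ± 0.18, adjusted p = 0.0296), and 1 lower, Tmem135 (-0.30 ± 0.08, adjusted p = 0.036). That is 11.1% of the list, beside 8.6% of all genes. Abca1 averaged 225 CPM in Δ/DN US and 371 CPM in Δ/+ US cells. Of 8 enzymes that make or remove sterol ligands, 1 rose and 4 fell in Δ/DN and 2 rose and 5 fell in Δ/+ cells. Ch25h, which makes 25-hydroxycholesterol, averaged 165 CPM in Δ/DN LPS and 5.37 CPM in Δ/DN US cells (5.21 ± 0.69, adjusted p = 6.06e-05), while the cholesterol synthesis gene Dhcr7 fell, with a log2 fold change of -2.07 ± 0.14 in Δ/DN and -2.46 ± 0.16 in Δ/+ cells (adjusted p = 4.38e-08 and 3.06e-08).

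Of 18 PPAR targets tested, 3 rose and 6 fell with LPS in Δ/DN and 4 rose and 7 fell in Δ/+ cells. Angptl4, a lipoprotein lipase inhibitor, fell, with a log2 fold change of -2.99 ± 0.28 in Δ/DN and -4.10 ± 0.33 in Δ/+ cells (adjusted p = 8.63e-07 and 1.82e-07). Fabp3, a fatty acid carrier, rose in Δ/DN cells, with a log2 fold change of 4.01 ± 0.47 (adjusted p = 1.18e-05). Between genotypes 1 PPAR target was higher and 2 lower in Δ/DN US cells (16.7%, beside 10.5% of all genes), and 1 was higher and 1 lower in Δ/DN LPS cells (11.1%, beside 8.6%). Among US cells Acadl, a fatty acid oxidation gene, was higher (0.43 ± 0.10, adjusted p = 0.0206), and Angptl4 (-1.28 ± 0.26, adjusted p = 0.0111) and Plin2, which the LXR list also holds, were lower. Among LPS cells Ech1, another fatty acid oxidation gene, was higher (0.39 ± 0.10, adjusted p = 0.0325), and Fabp4, a marker of PPARγ activity in fat, was lower (-2.00 ± 0.56, adjusted p = 0.0472). Of 16 RAR and RXR targets and retinoid enzymes, 5 rose and 2 fell in Δ/DN and 6 rose and 3 fell in Δ/+ cells. The retinal reductase gene Dhrs3 fell, with a log2 fold change of -1.81 ± 0.23 in Δ/DN and -2.74 ± 0.27 in Δ/+ cells (adjusted p = 2.14e-05 and 2.22e-06), and the integrin gene Itga4 rose, with a log2 fold change of 2.23 ± 0.25 in Δ/DN and 2.53 ± 0.27 in Δ/+ cells (adjusted p = 7.84e-06 and 3.82e-06). Among US cells the transglutaminase gene Tgm2 averaged 342 CPM in Δ/DN and 1209 CPM in Δ/+ (-1.87 ± 0.35, adjusted p = 0.0101). The retinoic acid-degrading Cyp26b1 was lower in Δ/DN (-1.38 ± 0.39, adjusted p = 0.0414), and Aldh1a2, the main retinoic acid-making enzyme of dendritic cells, was higher (1.13 ± 0.29, adjusted p = 0.0319), so that 1 of 16 was higher and 2 lower (18.8%, beside 10.5% of all genes). Among LPS cells Dhrs3 was higher (1.12 ± 0.27, adjusted p = 0.0263) and the retinal reductase gene Rdh11 lower (-0.66 ± 0.09, adjusted p = 0.0039). That is 12.5% of the 16, beside 8.6% of all genes. Of 7 VDR targets and vitamin D enzymes, 2 rose and 1 fell in Δ/DN and 3 rose and 1 fell in Δ/+ cells. Cd14, the LPS co-receptor, rose, with a log2 fold change of 3.12 ± 0.27 in Δ/DN and 2.12 ± 0.28 in Δ/+ cells (adjusted p = 8.04e-07 and 2.66e-05). Among US cells 1 gene of the list was higher in Δ/DN, the sterol hydroxylase gene Cyp27a1 (1.02 ± 0.29, adjusted p = 0.0401). Cd14 was lower there (-1.61 ± 0.27, adjusted p = 0.00642), so that 28.6% of the 7 passed, beside 10.5% of all genes. None passed among LPS cells, where 8.6% of all genes did.

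Of 16 glucocorticoid receptor targets, 7 rose and 5 fell with LPS in Δ/DN and 7 rose and 4 fell in Δ/+ cells. Tsc22d3 (GILZ), a classical glucocorticoid-induced gene, fell, with a log2 fold change of -1.71 ± 0.13 in Δ/DN and -1.83 ± 0.15 in Δ/+ cells (adjusted p = 1.17e-07 and 1.83e-07), while the metallothionein gene Mt2 rose, with a log2 fold change of 1.87 ± 0.18 in Δ/DN and 2.83 ± 0.19 in Δ/+ cells (adjusted p = 1.28e-06 and 6.15e-08). With LPS, 4 were lower and 1 higher in Δ/DN, where 3.23% and 5.37% of all genes were. Mt2 averaged 103 CPM in Δ/DN LPS and 251 CPM in Δ/+ LPS cells (-1.43 ± 0.20, adjusted p = 0.0039). Mt1 and the EGF receptor inhibitor gene Errfi1 were also lower (-0.67 ± 0.12 and -2.40 ± 0.58; adjusted p = 0.00804 and 0.0312), and Per1 was higher (0.67 ± 0.18, adjusted p = 0.0349). The count of 5 was 1 to 6 when 1 library was left out, with 1 without Δ/+ LPS replicate 2. Among US cells 0 were higher and 2 lower, Errfi1 (-2.57 ± 0.52) and Klf9 (-0.71 ± 0.18; adjusted p = 0.0155 and 0.0246). Those 2 are 12.5% of the 16 glucocorticoid receptor targets, beside 10.5% of all genes. Of 17 clock genes, 3 rose and 6 fell with LPS in Δ/DN and 3 rose and 7 fell in Δ/+ cells. Per1 fell, with a log2 fold change of -1.19 ± 0.15 in Δ/DN and -1.87 ± 0.18 in Δ/+ cells (adjusted p = 1.48e-05 and 7.54e-07) and Tef with log2 fold changes of -1.48 ± 0.22 in Δ/DN and -2.11 ± 0.25 in Δ/+ cells (adjusted p = 5.69e-05 and 7.12e-06). Cry1, a repressor of the clock, rose in Δ/DN cells, with a log2 fold change of 1.10 ± 0.11 (adjusted p = 1.51e-06). Among US cells 3 clock genes were lower and 0 higher in Δ/DN (17.6%, beside 10.5% of all genes), Cry1 (-0.82 ± 0.11), Clock (-0.48 ± 0.09) and Per2 (-0.80 ± 0.22; adjusted p = 0.00234, 0.00746 and 0.0318). Among LPS cells 2 were higher and 1 lower (17.6%, beside 8.6%), Npas2 (1.56 ± 0.40), Per1 and Nfil3 (-1.03 ± 0.20; adjusted p = 0.0328 for Npas2 and 0.0135 for Nfil3). Of 16 PGC-1 and ERR targets and partners, 6 rose and 5 fell in Δ/DN and 7 rose and 5 fell in Δ/+ cells, so the list held both directions beside the fall of Ppargc1b. Between genotypes 1 was lower in Δ/DN US cells (6.25%, beside 10.5% of all genes), and 1 was higher and 1 lower in Δ/DN LPS cells (12.5%, beside 8.6%). No gene of any of these lists passed the test of a different LPS response between genotypes. The fatty acid oxidation gene Acadm fell, with a log2 fold change of -0.83 ± 0.11 in Δ/DN and -0.93 ± 0.12 in Δ/+ cells (adjusted p = 1.47e-05 and 1.21e-05), and the cytochrome c gene Cycs rose, with a log2 fold change of 0.98 ± 0.13 in Δ/DN and 1.33 ± 0.14 in Δ/+ cells (adjusted p = 2.17e-05 and 2.49e-06).

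The 6 members with too few reads for the test were Ppara (16 reads in all), Nr2f2 (13), Nr5a1 (16), Esrrg (38), Rorb (57) and Nr1h5 (31). Rorb had 1 to 10 reads in each library, and the others had none in at least 5 libraries. Nr1h5, a lanosterol receptor gene in the mouse, had 22 reads over the Δ/DN LPS libraries, against 1 in the Δ/DN US libraries, a depth-adjusted ratio of 27.3 (95% counting interval 4.42 to 1129). It had 6 over the Δ/+ LPS libraries, against 2 in the Δ/+ US libraries, a ratio of 4.59 (95% counting interval 0.820 to 46.5). Of those 22 reads, 12 came from 1 library, and none came from Δ/DN LPS replicate 2.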

How the data were processed

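Total RNA was depleted of ribosomal RNA and sequenced in 15 libraries. The authors deposited 1 table of raw read counts per gene for each library; per the submitters' processing notes the builds were GRCm39 and mm39 and the tools bedtools, edgeR, FastQC, featureCounts, HISAT2 2.2.1 and Trimmomatic 0.33. Whether counting used strand is not given in the sources used here. The deposited gene lengths exceeded the gene's span for 8 of the 36 members and were not used; levels per kb use exonic bases of GENCODE M21. Each library was placed in its group by its label. The genes and lists were chosen with earlier results of these data known.

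Counts were tested with edgeR 4.0.16 in R 4.3.3 (filterByExpr with a minimum count of 10, TMM, robust quasi-likelihood F test) in 1 fit of the 4 groups with library set as a term, with Benjamini-Hochberg adjustment over 20865 genes. SE is the log2 fold change divided by the square root of F, and CPM was computed from the counts on TMM library sizes. The 95% intervals assume normal errors and are narrower than the F test allows. An interval can thus lie on 1 side of no change at an unadjusted p above 0.05. The procedure was tested on simulated data. Alternatives were DESeq2 1.42.0, another normalisation, no low-count filter, no set term, set 2 alone, no Δ/DN culture 3 or 4, a replicate block, and each library left out in turn. Library names give the LPS and US library of a culture the same number, and their deviations from the group means correlated at 0.0643 to 0.4283, so the culture served as the block for LPS. All members were reported, with values per library for the members that passed; from each list at most 4 genes a comparison, those with the smallest p, were candidates to be named; some are not reported here. Counting intervals are exact, for the ratio of 2 counts.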

Additional observations from a re-analysis of the deposited data

Results flagged for a closer look

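The 20 members that passed were checked in the 3 groups of 4 libraries, and in 4 of these 60 cases 1 library stood apart from the other 3 by Dixon's test; chance alone gives about 1 in 20. Esr1 reached 33.8 CPM in Δ/DN US replicate 2, with the other libraries of that group at 22.9 to 24.7 CPM. Nr2f6 reached 19.9 CPM in Δ/DN US replicate 3, with the others at 12.4 to 13.6 CPM. Rarg reached 38.9 CPM in Δ/+ US replicate 4, with the others at 18.3 to 21.6 CPM. Rxra reached 119.9 CPM in the same library, with the others at 66.5 to 73.1 CPM.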

How the results depend on the processing

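LPS counts of members that passed kept within 1.5 times of the value with all libraries: 13 to 18 against 15 in Δ/DN cells and 16 to 17 against 17 in Δ/+ cells, with 14 to 19 and 16 to 17 when 1 library was left out. No direction of a called member reversed. The genotype counts were less stable. Among US cells, where 5 members passed, 1 passed without the library set term, 8 with DESeq2, 2 within set 2, 8 without Δ/DN culture 3, and 1 to 9 when 1 library was left out; for Δ/DN US libraries the count was 1 without replicate 2, 9 without replicate 3 and 2 without replicate 4, and for Δ/+ US libraries it was 3 without replicate 1, 2 without replicate 2 and 1 without replicate 4. Among LPS cells, where 3 passed, 5 passed with DESeq2, 5 without Δ/DN culture 3, and 0 to 4 when 1 library was left out, with 1 without Δ/+ LPS replicate 1 and 0 without Δ/+ LPS replicate 2 or Δ/DN LPS replicate 2. Over all genes, 2184 passed among US cells, against 1270 without the set term and 3433 with DESeq2. Among LPS cells 1795 passed, against 2967 with DESeq2. Without Δ/DN culture 3, 3705 genes passed among US and 2878 among LPS cells, and within set 2 1271 passed among US cells. Single libraries moved these far more: among US cells, dropping a Δ/DN library gave 350 calls for replicate 2, 882 for replicate 4 and 3403 for replicate 3, and dropping a Δ/+ library gave 549 for replicate 2 and 174 for replicate 4. Among LPS cells 90 passed without Δ/+ LPS replicate 2, 184 without Δ/DN LPS replicate 2 and 312 without Δ/+ LPS replicate 1. The genotype calls of the partner and target lists moved with them. Leaving out 1 library gave 0 to 8 calls for the LXR list, 0 to 6 for the PPAR list, 0 to 4 for the retinoid list, 0 to 9 for the glucocorticoid list, 1 to 5 for the clock list and 0 to 5 for the coactivators among US cells. Among LPS cells it gave 1 to 6 for the glucocorticoid list, 0 to 4 for the clock list, 0 to 3 for the LXR and corepressor lists, 0 to 2 for the PPAR list and 1 to 5 for the coactivators. Over all 5 comparisons and all alternatives, 179 of the partner and target list counts and 184 of the marker list counts moved by over 1.5 times, and 1086 and 736 did not. Of the list genes named, Cry1 and Cd14 among US cells and Mt2, Ncoa7 and Rdh11 among LPS cells kept their genotype call in 15 of 15 refits, while Abca1 kept it in 3, Fabp4 in 4, Lcor in 5 and Tbl1xr1 in 1. The causes were not tested. With the culture as a replicate block, 17 members passed for LPS in Δ/DN, 17 in Δ/+ and 0 for the difference of the responses. Of all genes, 10873, 10454 and 106 passed in that order. Libraries with the same number in the 2 genotypes correlated at -0.0885 to 0.1459. That range overlaps the 0.0643 to 0.4283 of the LPS and US libraries of a culture. Whether libraries of the 2 genotypes share more than a number was not stated, and these correlations cannot decide it. With the number as a replicate block 8 members passed among US cells, where 3994 of all genes did. Among LPS cells 9 members passed, where 3809 of all genes did. The set's meaning, the letters of the groups and strand limit what the genotype and overlap values mean, and members under 10 reads per library are limited by depth.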

Other observations

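A receptor gene outside the naming rule also had reads. The progesterone receptor gene Pgr had 510 reads over the Δ/DN LPS libraries, 88 over the Δ/+ LPS libraries, 548 over the Δ/DN US libraries and 326 over the Δ/+ US libraries. It was tested, and it did not pass in any of the 5 comparisons. It was not chosen by the rule that chose the members.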
